A study of Mus musculus with 9 samples.

Results

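Heat-making effector genes are the genes whose products carry out or directly feed heat production in brown and beige fat cells. The 10 genes examined were the uncoupling protein gene Ucp1, the channel genes Otop1 and Kcnk3, the mitochondrial gene Letmd1, the deiodinase gene Dio2, the lipid droplet gene Cidea, the fuel genes Pdk4 and Gk, and the very long fatty acid genes Elovl3 and Slc27a2. They were 10 of the 21938 protein-coding genes of GENCODE M21, named for the roles of their products by a rule that uses no value of the peak lists, although earlier results of these data were known when they were chosen. For each gene, peaks were collected within 1 kb of any of its transcription start sites (TSSs), here called promoter peaks, and in the gene body with 20 kb on each side, here called the region. The median region of the 10 genes was 59.0 kb long, against 57.4 kb for all protein-coding genes.

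Beige and brown adipocytes burn fuel in mitochondria whose inner membrane lets protons flow back without making ATP, so that the energy is released as heat. Cold acts through noradrenaline, the β3-adrenergic receptor and cyclic AMP, and thyroid hormone made inside the cell adds to the response. In inguinal fat most adipocytes are white at thermoneutral or room temperature, and thermogenic genes such as Ucp1 are turned up by cold through enhancers that lie upstream of the gene.

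Most libraries came from mature fat cells of the inguinal white fat pad (iWAT), isolated as the layer that floats after collagenase treatment and spinning, of male mice 8 to 10 weeks old. Ets1, an ETS family transcription factor, was profiled by CUT&Tag in wild type C57 mice at room temperature (RT), in wild type mice after 7 days of cold stress (CS), and in primary beige adipocytes. The beige cells were grown from the stromal vascular fraction of iWAT of male mice aged 3 to 4 weeks. They were differentiated for 6 days with insulin, T3 and rosiglitazone, with dexamethasone and IBMX in the first medium only. H3K27ac, an acetyl mark of active promoters and enhancers, was profiled by CUT&Tag in Ets1 ki/ki mice with Adipoq-cre (EA+/+), which turns on an Ets1 cassette at the Hipp11 locus in adipocytes, in Ets1 ki/ki mice without Cre (EC+/+), in Ets1 f/f mice with Adipoq-cre (EAKO) and in Ets1 f/f mice without Cre (Flox). ATAC, in which a transposase tags open chromatin, was run on Flox and EAKO adipocytes. Both EA+/+ and EC+/+ mice carried the cassette, both EAKO and Flox mice carried the floxed allele, and only EA+/+ and EAKO carried Cre.

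Each group was 1 library, so no difference between groups could be tested and the spread between animals is unknown. Lists held 4056 to 30553 Ets1 peaks, 33713 to 86834 H3K27ac peaks and 82839 to 88977 ATAC peaks, and sequencing depth cannot be read from them. A peak's strength is given as the −log10 of its q-value, beside its rank within its own list in percent, where a low percent is a strong peak. Values of one library were not divided by those of another, because both depend on depth and background. Peak lists do not measure the Ets1 transcript or protein, so the knock-in and the knock-out could not be checked at these genes. Of 12 adipocyte marker genes 9 had a promoter peak in Flox ATAC, near the share of all protein-coding genes (67.7%). Adipoq, Cidec and Lep had none there, although all 12 had a peak in their region (83.7% of all genes). Marker genes of other cells had promoter peaks in the same list too, at 9 of 10 progenitor, 8 of 10 endothelial and 7 of 8 mural genes. The counts were 4 of 8 for skeletal muscle, 3 of 10 for macrophage and 1 of 10 for lymphocyte genes. Set against 67.7% of all genes, such counts do not show how many of these cells were present. What these cells add to the peaks of the 10 genes was not tested, and peaks from more cells of a type and from more signal per cell cannot be told apart.

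The sequences below carry the findings described in the following paragraphs. All are from GRCm38 (mm10), read in the direction of the gene. The letters CCGGAAG or their reverse complement, a longer form of the ETS family's binding motif, are in capitals where present and are called an ETS match. The shorter core given by the study, GGAA/T, was not searched for and occurs unmarked in some of these sequences, as in that of Pdk4. The first is the centre of the open site upstream of Ucp1 at chr8:83278499-83278798 (+ strand, 11703 bp upstream of the TSS), the strongest ATAC peak of its region. The second lies inside the window of the known Ucp1 upstream enhancer, at chr8:83287752-83288051 (+ strand), where no list had a peak. The third is the Letmd1 promoter up to its TSS at chr15:100468751-100469022 (+ strand), around the only Ets1 peak of RT adipocytes in these regions. The fourth is the Pdk4 promoter up to its TSS at chr6:5496310-5496548 (minus strand), around the CS Ets1 summit. The fifth is the Gk promoter upstream of its TSS at chrX:85776820-85776997 (minus strand), and the sixth is the ETS match 65 bp downstream of that TSS, in the first exon, at chrX:85776740-85776769 (minus strand). The last is the site upstream of Dio2 at chr12:90740489-90740788 (minus strand, summit 2201 bp upstream), which held an Ets1 peak in CS adipocytes.
Ucp1 upstream open site: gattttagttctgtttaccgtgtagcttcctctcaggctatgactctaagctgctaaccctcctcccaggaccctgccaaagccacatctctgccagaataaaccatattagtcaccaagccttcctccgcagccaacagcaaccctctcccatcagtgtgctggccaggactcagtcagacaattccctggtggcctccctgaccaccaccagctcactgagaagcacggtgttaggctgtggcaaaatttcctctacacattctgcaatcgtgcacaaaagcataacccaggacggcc
Ucp1 enhancer window: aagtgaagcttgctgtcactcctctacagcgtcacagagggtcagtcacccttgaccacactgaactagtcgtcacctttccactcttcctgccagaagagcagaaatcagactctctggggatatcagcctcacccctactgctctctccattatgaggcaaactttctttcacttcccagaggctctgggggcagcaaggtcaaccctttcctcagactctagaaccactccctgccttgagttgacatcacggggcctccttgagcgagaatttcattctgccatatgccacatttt
Letmd1 promoter: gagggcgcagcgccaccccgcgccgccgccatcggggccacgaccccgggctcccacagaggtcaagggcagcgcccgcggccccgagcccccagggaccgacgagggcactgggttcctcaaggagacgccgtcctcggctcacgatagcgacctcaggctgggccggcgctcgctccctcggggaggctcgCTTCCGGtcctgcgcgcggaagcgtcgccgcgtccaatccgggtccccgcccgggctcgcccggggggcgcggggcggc
Pdk4 promoter: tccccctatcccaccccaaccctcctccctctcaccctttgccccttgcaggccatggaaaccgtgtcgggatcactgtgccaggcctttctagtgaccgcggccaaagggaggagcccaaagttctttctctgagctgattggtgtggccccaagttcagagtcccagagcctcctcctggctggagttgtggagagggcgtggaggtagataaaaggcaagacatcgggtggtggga
Gk promoter: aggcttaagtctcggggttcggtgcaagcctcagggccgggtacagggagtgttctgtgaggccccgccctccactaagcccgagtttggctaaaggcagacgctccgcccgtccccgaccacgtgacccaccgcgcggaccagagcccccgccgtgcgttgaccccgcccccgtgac
Gk first exon, ETS match: tcattggcccgcCCGGAAGacagcgccccc
Dio2 upstream site: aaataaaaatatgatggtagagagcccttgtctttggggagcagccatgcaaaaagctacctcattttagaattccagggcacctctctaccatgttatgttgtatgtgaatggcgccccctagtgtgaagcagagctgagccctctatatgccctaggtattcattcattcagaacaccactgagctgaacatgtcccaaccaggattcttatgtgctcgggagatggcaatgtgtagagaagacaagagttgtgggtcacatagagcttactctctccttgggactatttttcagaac

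Ets1 peaks were found at the promoters of the mitochondrial and fuel genes Letmd1, Pdk4 and Gk, and at no promoter of the other 7 genes in any of the 3 Ets1 lists. In RT adipocytes 1 of 10 promoters had an Ets1 peak (Letmd1), where 4.06% of all protein-coding genes did. In CS adipocytes it was 3 of 10, against 32.7% of all genes, and in beige adipocytes the same 3 of 10, against 46.4%. The counts of the 10 genes were thus above the background in RT through 1 gene, near it in CS and below it in beige cells. With only 10 genes these differences are small and were not tested. Any Ets1 peak in the region was present at 1, 4 and 5 of the 10 genes in RT, CS and beige adipocytes, where the shares of all genes were 14.7%, 57.2% and 69.3%. The regions held 1, 5 and 12 Ets1 peaks in these lists, and Ucp1, Otop1, Kcnk3 and Slc27a2 held none.

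H3K27ac and open chromatin covered more of the 10 promoters. H3K27ac promoter peaks stood at 5 of 10 genes in EC+/+ (52.0% of all genes), 7 of 10 in EA+/+ (50.4%), 8 of 10 in Flox (63.9%) and 5 of 10 in EAKO (60.5%). ATAC promoter peaks stood at 9 of 10 in Flox (67.7% of all genes) and 8 of 10 in EAKO (66.0%). At the level of the region, H3K27ac was found at 8 of 10 genes in EC+/+ (74.6% of all genes), 9 of 10 in EA+/+ (76.4%) and 10 of 10 in Flox (82.3%) and EAKO (80.6%). ATAC peaks were found in all 10 regions in both Flox (83.7% of all genes) and EAKO (83.3%). Presence did not tell strength. In Flox and EAKO most of the peaks outside Letmd1, Pdk4 and Gk ranked in the weaker part of their lists. Over all the genes with a peak, 4 of 5 promoter peaks in EC+/+ and 4 of 7 in EA+/+ ranked in the top 20%. These were the peaks of Letmd1, Pdk4 and Gk in both lists, with Otop1 in EC+/+ and Dio2 in EA+/+. Promoter peaks in general often ranked that high. Among all genes with a promoter peak, Gk (list rank 17.0%) stood at 42.5% of the order in EC+/+. In EA+/+ Letmd1 (list rank 18.8%) stood at 45.2%, so these counts do not set the 10 genes apart.

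**Figure D1:**
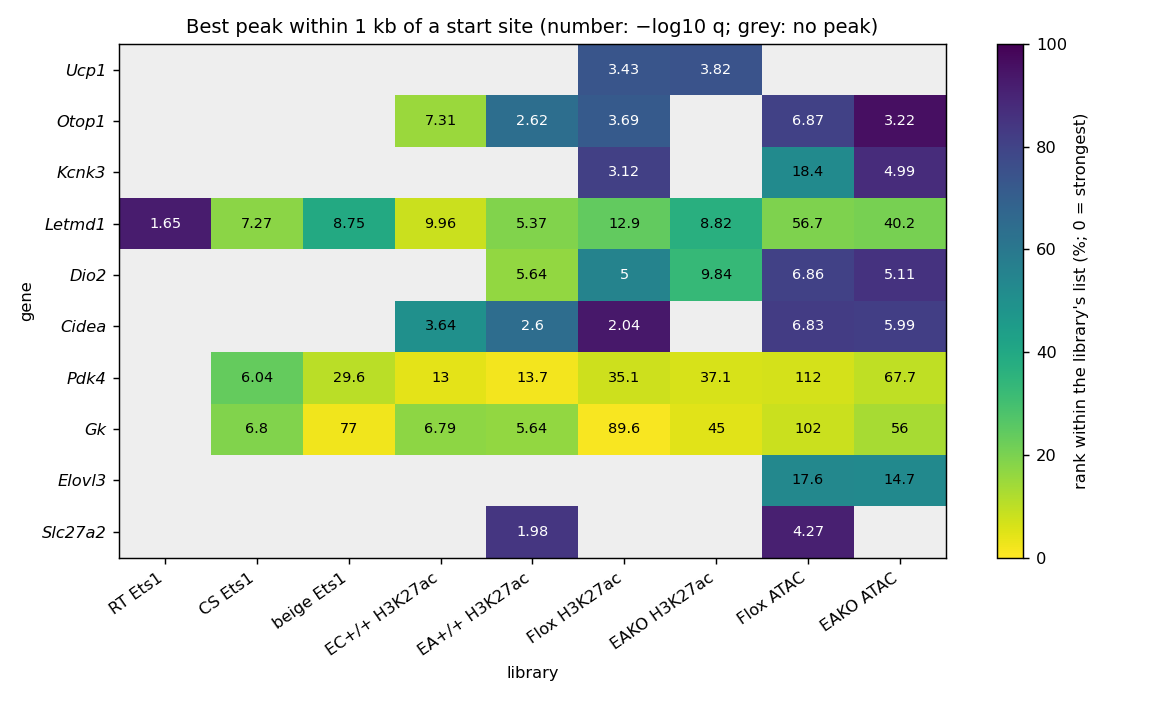
Best promoter peak of each gene (rows) in each library (columns), coloured by its rank within the library's list in percent, from strongest (yellow, 0) to weakest (dark, 100), with the −log10 q as a number and grey where there was no peak. Pdk4 and Gk are bright in 8 of 9 libraries, Letmd1 has a peak in all 9, and the remaining genes are mostly grey or dark.

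Ucp1 encodes the proton carrier that uncouples the mitochondrial membrane, and it lies at chr8:83290352-83298452 on the + strand. Its promoter had an H3K27ac peak in Flox (−log10 q 3.43, rank 73.8%) and in EAKO (3.82, rank 74.3%), and none in EC+/+ or EA+/+. No library had an ATAC or Ets1 peak there. Among the 14015 genes with an H3K27ac promoter peak in Flox, Ucp1 was number 13282, and in EAKO it was number 12575 of 13262. The promoter was therefore marked weakly in the floxed and knock-out libraries and had no called peak in the remaining ones.

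The known Ucp1 enhancer was looked for in the window from 3000 to 2000 bp upstream of the TSS, which is chr8:83287352-83288351. None of the 9 lists had a peak in it, nor in a wider window from 4000 to 1500 bp upstream. The nearest Ets1 peak to the enhancer window was 251 kb away in RT, 43.9 kb in CS and 34.4 kb in beige adipocytes. The nearest ATAC peak was 8.50 kb away in Flox and 8.53 kb in EAKO. For H3K27ac the distances were 1.72 kb in Flox and 1.92 kb in EAKO (the promoter peak), 16.0 kb in EA+/+ and 34.1 kb in EC+/+. The enhancer window held no exact match to CCGGAAG, to the cyclic AMP response element TGACGTCA, or to CAAAGGNCA, the core of the DR1 element read by PPAR receptors. Over the same window of all protein-coding genes these matches were found in 3.71%, 0.497% and 6.92%. Forms of these elements that differ from the exact letters were not searched for. The search therefore does not show that the window lacks such elements.

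The chromatin around Ucp1 instead peaked farther upstream. A site at chr8:83278294-83278894, 11.7 kb upstream of the TSS, held the only ATAC peak of the region, at −log10 q 26.7 (rank 40.3%) in Flox and 10.1 (rank 64.7%) in EAKO. H3K27ac was present at the same site at 8.58 (rank 34.9%) in Flox and 9.89 (rank 32.7%) in EAKO, and absent from the EC+/+ and EA+/+ lists. The knock-out library thus ranked 24.4 points lower in openness at this site and 2.23 points higher in H3K27ac. A second site, 19.2 kb upstream, had H3K27ac in EA+/+ (6.22, rank 13.5%), Flox (6.53, rank 45.5%) and EAKO (3.82, rank 74.3%), without an ATAC peak. EC+/+ adipocytes had no H3K27ac peak in the whole region, EA+/+ had 3, and Flox and EAKO had 4 each.

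**Figure D2:**
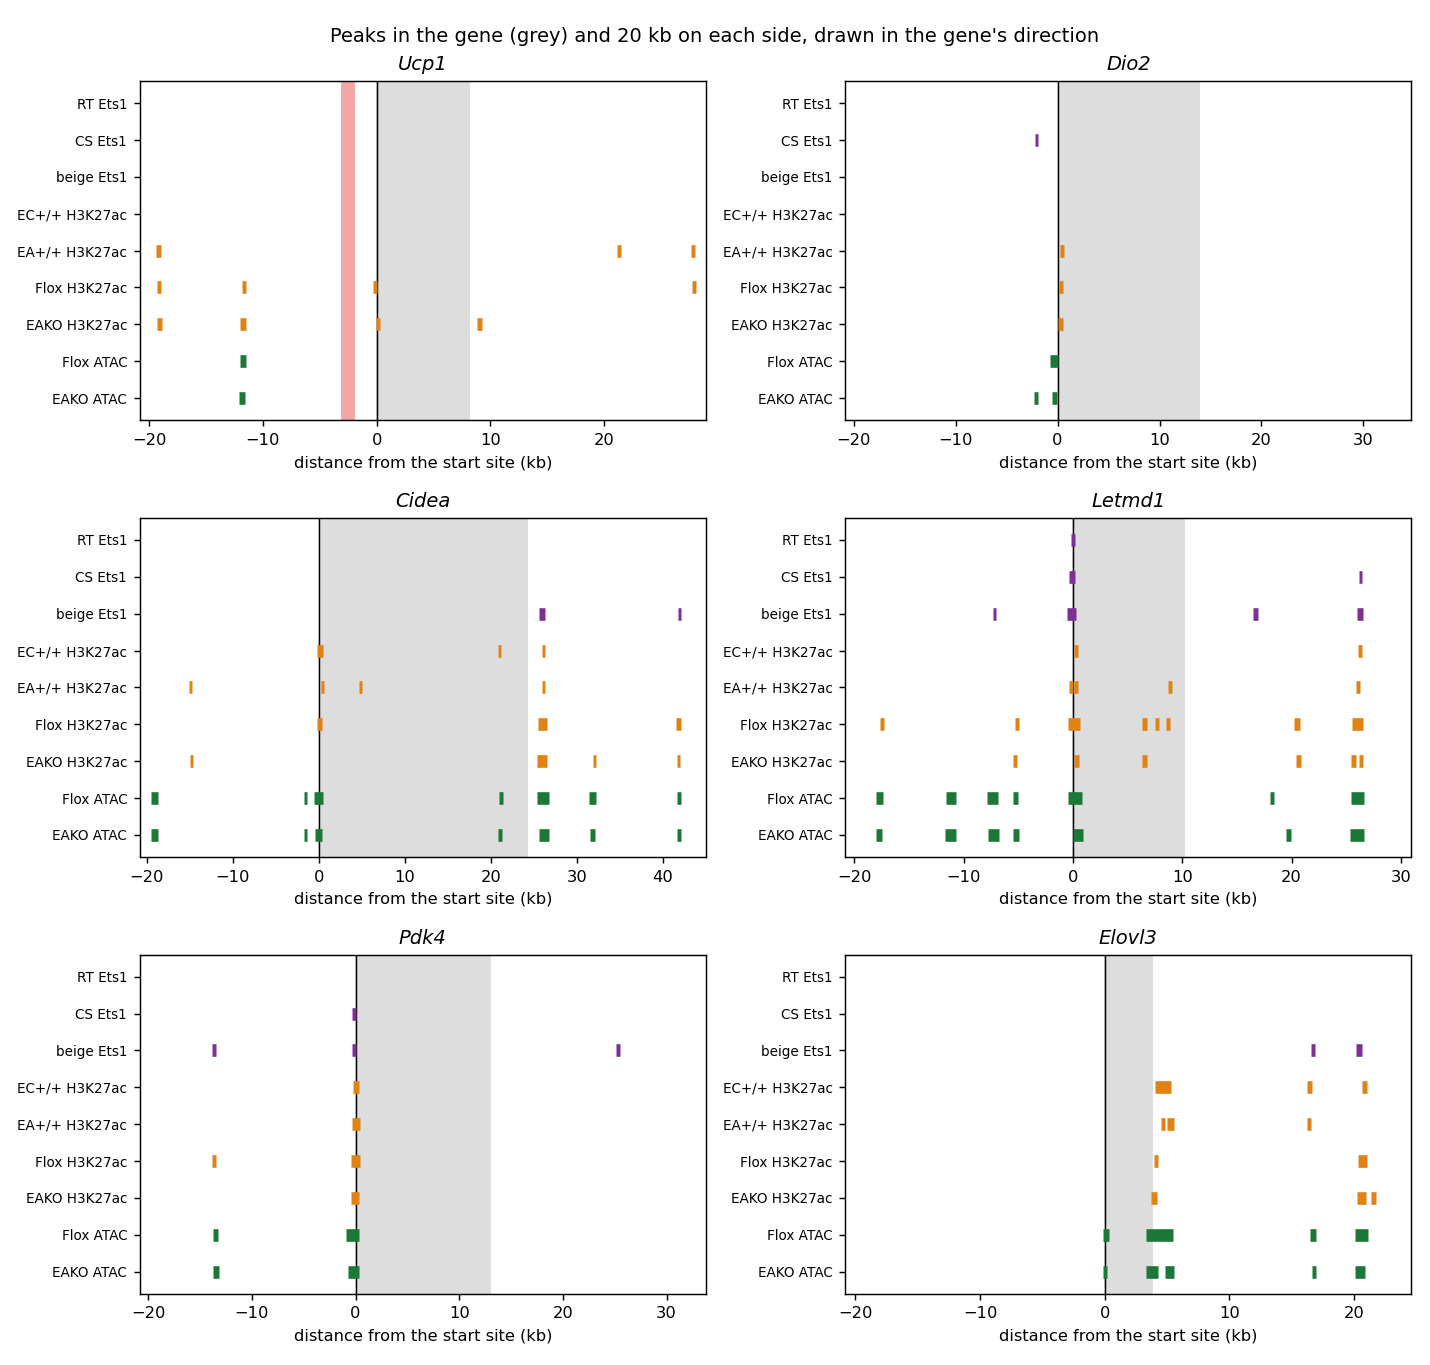
Peaks in the regions of 6 genes by library (rows; purple Ets1, orange H3K27ac, green ATAC), by distance from the TSS in kb in the direction of the gene, with the gene in grey and the window from 3000 to 2000 bp upstream of Ucp1 in pink. The Ucp1 window is empty in all 9 libraries, Letmd1 and Pdk4 have Ets1 at the TSS, and the Ets1 peaks of Cidea and Elovl3 lie beyond the end of the gene.

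The channel genes Otop1 and Kcnk3 had no Ets1 peak in any library. Otop1, which encodes a proton channel, had its promoter peaks near an internal TSS rather than the first one, with summits 1336 to 1857 bp downstream of the first TSS. H3K27ac there was 7.31 (rank 15.0%) in EC+/+, 2.62 (rank 64.0%) in EA+/+ and 3.69 (rank 71.8%) in Flox, with no peak in EAKO. ATAC was 6.87 in Flox (rank 80.7%) and 3.22 in EAKO (rank 95.9%). Stronger ATAC peaks in the Otop1 region lay at the promoter of its neighbour Tmem128, 15.4 kb upstream (75.8 in Flox and 52.8 in EAKO), and 31.9 kb downstream of the TSS, past the end of the gene (72.2 and 57.3).

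Kcnk3 encodes a background potassium channel that limits heat production in thermogenic adipocytes. An ATAC peak lay 454 bp upstream of its first TSS in Flox (13.7, rank 61.7%), and the EAKO peak that overlapped it reached 4.99 (rank 87.3%). At an internal TSS in the last part of the gene ATAC was 18.4 in Flox (rank 52.0%) and 2.19 in EAKO (rank 99.3%). Between these libraries this was the largest fall in rank among the shared ATAC peaks of the 10 genes. The Flox and EAKO peaks of this pair overlapped only in part, with summits 34317 and 33864 bp downstream of the first TSS. The fall thus compares peaks that cover largely different bases, and under the stricter overlap tried as an alternative they were not shared. H3K27ac within 1 kb of the internal TSS reached 3.12 in Flox (rank 81.2%) and had no peak in EAKO. The region held 12 separate sites, the second most of the 10 genes, but H3K27ac did not exceed a −log10 q of 4.40 at any of them. EA+/+ adipocytes had no H3K27ac peak in the Kcnk3 region, where EC+/+ had 4.

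Letmd1, whose product sits in the inner mitochondrial membrane and is needed for brown fat thermogenesis, was the only one of the 10 with a promoter peak in all 9 lists, a pattern shared by 676 genes (3.08%). Ets1 at the Letmd1 promoter had a −log10 q of 1.65 in RT (rank 92.5%), 7.27 in CS (rank 17.3%) and 8.75 in beige adipocytes (rank 39.4%). The RT peak was close to the threshold of the list. The H3K27ac values were 9.96 (EC+/+), 5.37 (EA+/+), 12.9 (Flox) and 8.82 (EAKO), at ranks of 7.95%, 18.8%, 24.1% and 37.0%. ATAC was 56.7 in Flox (rank 19.5%) and 40.2 in EAKO (rank 20.7%). All 3 Ets1 windows of 300 bp around the summit contained the same ETS match, 76 bp upstream of the TSS and 46, 130 and 37 bp from the RT, CS and beige summits, in capitals in the Letmd1 sequence above. The region also held Ets1 at the promoter of the neighbour Csrnp2, 26.3 kb downstream of the TSS (3.66 in CS and 9.99 in beige), and in beige cells 7.16 kb upstream (6.18) and 16.7 kb downstream (3.47).

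Dio2 encodes the deiodinase that makes active thyroid hormone inside the cell. It had no Ets1 promoter peak, but CS adipocytes had an Ets1 peak 2201 bp upstream of the TSS (−log10 q 3.16, rank 58.0%), which neither RT nor beige cells shared. At the same site ATAC was present in EAKO (14.2, rank 53.2%) and absent from the Flox list. This site had no H3K27ac peak in any library and no exact match to CCGGAAG in its window. H3K27ac at the Dio2 promoter was 5.64 (rank 16.2%) in EA+/+, 5.00 (rank 55.4%) in Flox and 9.84 (rank 32.8%) in EAKO, with no peak in EC+/+. ATAC at the promoter was 6.86 in Flox (rank 80.8%) and 5.11 in EAKO (rank 85.4%), so the promoter ranked among the weakest open ones in both.

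Cidea encodes a lipid droplet protein of thermogenic fat. Its promoter, on chromosome 18, had no Ets1 peak. H3K27ac was weak there, at 3.64 in EC+/+ (rank 49.8%), 2.60 in EA+/+ (rank 64.4%) and 2.04 in Flox (rank 93.6%), with no peak in EAKO, and ATAC was 6.83 in Flox and 5.99 in EAKO (ranks 82.3% and 81.6%). The strong sites lay downstream. At 26.2 kb from the TSS, past the end of the gene, beige cells had an Ets1 peak of 24.3 (rank 13.4%), with H3K27ac of 4.19 (EC+/+), 2.40 (EA+/+), 29.8 (Flox) and 25.3 (EAKO), and ATAC of 102.7 in Flox and 84.2 in EAKO. At 41.9 kb beige cells had a second Ets1 peak of 32.1 (rank 9.15%), with H3K27ac of 17.2 in Flox and 16.6 in EAKO and ATAC of 65.9 and 38.7. Neither site had an Ets1 peak in RT or CS adipocytes. The annotated TSS nearest to both downstream sites was that of Tubb6, at 20890 and 5248 bp.

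Pdk4, a kinase that turns off pyruvate dehydrogenase and so spares glucose, and Gk, the glycerol kinase that returns glycerol to triglyceride synthesis, both had a promoter peak in every library except RT Ets1, a pattern found at 4602 of the 21938 genes. Ets1 at the Pdk4 promoter was 6.04 in CS (rank 23.6%) and 29.6 in beige adipocytes (rank 10.3%). H3K27ac at Pdk4 ranked in the top 7.62% of every list, with values of 13.0 (EC+/+), 13.7 (EA+/+), 35.1 (Flox) and 37.1 (EAKO). ATAC was 111.9 in Flox (rank 6.42%) and 67.7 in EAKO (rank 9.53%). Neither Ets1 window at the Pdk4 promoter had an exact ETS match. Beige cells had further Ets1 peaks 13.6 kb upstream (6.06), over ATAC in both libraries, and 25.3 kb downstream of the TSS (3.67), where no other library had a peak.

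Ets1 at the Gk promoter was 6.80 in CS, number 2832 of 14858 peaks, and 77.0 in beige adipocytes, number 692 of 30553. Among the 10182 genes with an Ets1 promoter peak in beige cells Gk was number 680. H3K27ac at Gk was 6.79 in EC+/+ (rank 17.0%), 5.64 in EA+/+ (rank 16.2%), 89.6 in Flox (rank 0.889%) and 45.0 in EAKO (rank 4.36%). ATAC was 101.8 in Flox (rank 7.88%) and 56.0 in EAKO (rank 13.1%). Ranked by fold enrichment instead, the ATAC peaks of Gk stood at 23.4% and 29.2%, beside 23.7% and 21.2% for Letmd1. The CS, beige and Flox ATAC windows held the same ETS match 65 bp downstream of the TSS, which is 94, 50 and 36 bp from their summits. Although its region was the longest of the 10 at 114.9 kb, all Gk peaks of the 9 lists fell into 1 site at the promoter.

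Elovl3, which lengthens very long fatty acids and is among the genes most induced by cold in brown fat, had no Ets1 or H3K27ac peak at its promoter in any library. ATAC there was 17.6 in Flox (rank 53.5%) and 14.7 in EAKO (rank 52.4%), and by fold enrichment the ranks were 83.4% and 79.4%. Of the 5 sites in its region 4 lay at promoters of the neighbours Pitx3 and Gbf1. Both beige Ets1 peaks of the region were among them, at the Pitx3 promoter 16.6 kb downstream of the Elovl3 TSS (4.94) and at the Gbf1 promoter 20.4 kb downstream (22.7). These peaks cannot be assigned to Elovl3 from position alone. Slc27a2, which activates very long fatty acids, had a promoter H3K27ac peak in EA+/+ only (1.98, rank 84.1%) and a promoter ATAC peak in Flox only (4.27, rank 91.2%). The site with the strongest ATAC peak of its region, 41.6 kb downstream of the TSS, had ATAC of 54.3 in Flox and 30.4 in EAKO and H3K27ac of 4.05 in EA+/+, 4.82 in Flox and 7.97 in EAKO, and 3 of its 7 sites lay at the promoter of Hdc. In EA+/+ the H3K27ac peak at the Hdc promoter 55.3 kb downstream was the stronger (6.52, rank 11.8%).

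By openness, Pdk4, Gk and Letmd1 stood above the other 7 genes. Among all genes with an ATAC promoter peak in Flox (14858), Pdk4 was number 4963, Gk number 5716 and Letmd1 number 9364. Kcnk3 and Elovl3 were at 13059 and 13155, and Otop1, Dio2, Cidea and Slc27a2 at 14333, 14335, 14378 and 14653. The 7 genes other than Pdk4, Gk and Letmd1 thus had either no ATAC promoter peak in Flox or one in the weakest part of the order. These are the same 7 genes that had no Ets1 promoter peak in any library. In EAKO the same 3 genes led, with Pdk4 at 5583, Gk at 6814 and Letmd1 at 8581 of 14473, and the remaining genes with a peak between 12322 and 14363. Below them the order differed, as Kcnk3 went from ahead of Elovl3, Cidea and Dio2 in Flox to behind them in EAKO (14051). The Kcnk3 places rest on different peaks, at the internal TSS in Flox (18.4) and at the first TSS in EAKO (4.99). At the first TSS the Flox peak of Kcnk3 (13.7) was already below that of Elovl3 (17.6). The split was not seen throughout in H3K27ac. Among genes with an H3K27ac promoter peak, Otop1 (4401 of 11400) was ahead of Gk (4840) in EC+/+, Dio2 (4506 of 11058) was level with Gk and ahead of Letmd1 (5000) in EA+/+, and Dio2 (10304 of 13262) was ahead of Letmd1 (10734) in EAKO.

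The peaks of all 9 lists in the 10 regions merged into 65 sites. Of these 33 were in both ATAC lists, 50 in at least 1 H3K27ac list and 13 in at least 1 Ets1 list. ATAC without H3K27ac was found at 13 sites and H3K27ac without ATAC at 24. Ets1 sites coincided with ATAC at 11 of 13. Of the 65 sites 20 were in 1 list only and 9 lay over another gene's promoter. These site counts have no share over all genes beside them, so they do not set the 10 genes apart. Letmd1 had the most sites (13) and Gk the fewest (1). The number of peaks per 100 kb of region had a median of 0.435 over the 10 genes in beige Ets1, against 2.04 over all genes, and of 5.23 in Flox ATAC, against 5.83.

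**Figure D3:**
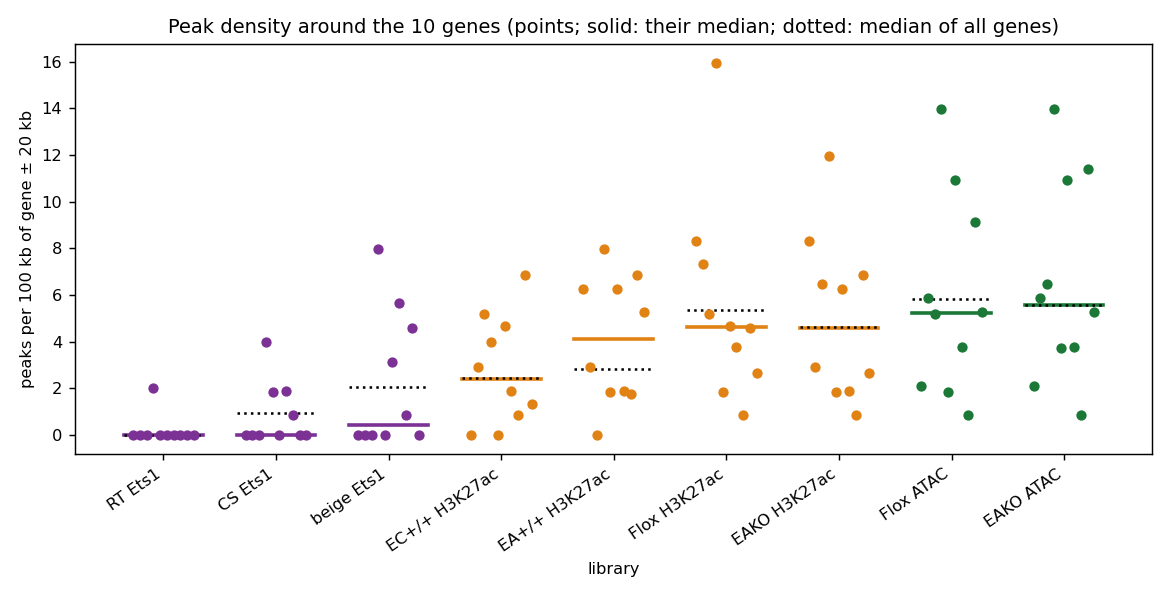
Peaks per 100 kb of gene and flanks for each of the 10 genes (points) in each library, with the median of the 10 (solid line) and of all 21938 protein-coding genes (dotted line). The median of the 10 lies below that of all genes in CS and beige Ets1, above it in EA+/+ H3K27ac, and close to it in both ATAC libraries.

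The comparison of cold with room temperature asks where Ets1 is found as adipocytes turn beige. All 3 Ets1 comparisons use the same 3 libraries and are not independent. At promoters Letmd1 had an Ets1 peak in both, and Pdk4 and Gk in CS alone (2 of 10, against 29.1% of all genes). None of the 10 had one in RT alone (0.428% of all genes). By region, 4 of the 5 CS peaks overlapped no RT peak, at Letmd1 (the Csrnp2 promoter), Dio2, Pdk4 and Gk, where 88.0% of all CS peaks did not. The 1 RT peak, at Letmd1, was shared with CS, where 55.9% of all RT peaks were not shared. The share of peaks gained at these genes was therefore not above the background.

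Between beige and CS adipocytes the promoters at Letmd1, Pdk4 and Gk were shared and none was alone in either list, against 17.1% of genes with beige Ets1 alone and 3.39% with CS Ets1 alone. Of 12 beige region peaks 8 overlapped no CS peak (78.7% of all beige peaks), 2 each at Letmd1, Cidea, Pdk4 and Elovl3. Of 5 CS peaks 1, upstream of Dio2, overlapped no beige peak (56.0% of all CS peaks). Against RT, beige cells alone had Ets1 at the Pdk4 and Gk promoters (2 of 10, against 42.8% of genes), and none of the 10 had it in RT alone (0.401%). All but the Letmd1 promoter peak, 11 of 12, overlapped no RT peak (96.8% of all beige peaks), and the RT peak was shared (75.7% of all RT peaks were not). At shared promoters the Ets1 rank improved from CS to beige by 13.2 points at Pdk4 and 16.8 points at Gk and worsened by 22.1 points at Letmd1. Over all 6544 shared peaks 63.8% ranked better in beige cells, the median size of a shift was 15.0 points and 1 in 10 exceeded 51.4 points, so these shifts lay within that size.

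Ets1 peaks of the 10 regions mostly lay in open chromatin. The single RT peak, 4 of 5 CS peaks and 10 of 12 beige peaks overlapped a Flox ATAC peak, where 24.3%, 53.4% and 85.5% of all peaks of these lists did. Flox H3K27ac covered 1 of 1, 4 of 5 and 8 of 12, against 47.2%, 64.3% and 77.4%. EAKO ATAC covered 0 of 1, 5 of 5 and 10 of 12, against 23.7%, 51.0% and 83.0%. EAKO H3K27ac covered 0 of 1, 4 of 5 and 7 of 12, against 42.5%, 59.2% and 73.8%. The RT peak, at the Letmd1 promoter, narrowly missed the EAKO peaks there. It ended at chr15:100469047, and the EAKO ATAC and H3K27ac peaks began at 100469060 and 100469106. The CS peak outside Flox ATAC was the one upstream of Dio2, and the beige peaks outside it were those 16.7 kb downstream of the Letmd1 TSS and 25.3 kb downstream of the Pdk4 TSS. An exact ETS match in the 300 bp around the summit was found in 1 of 1 RT, 2 of 5 CS and 2 of 12 beige peaks, against 2.37%, 8.16% and 7.77% of all peaks, all at the Letmd1 and Gk promoters. Among the 35 Flox ATAC peaks of the regions 3 had a match (3.93% of all), and none of the windows searched had an exact match to TGACGTCA or CAAAGGNCA.

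The knock-in comparison asks how H3K27ac differs when adipocytes carry extra Ets1. The promoters of 5 genes, Otop1, Letmd1, Cidea, Pdk4 and Gk, had an H3K27ac peak in both EC+/+ and EA+/+. EA+/+ alone had one at Dio2 and Slc27a2 (2 of 10, against 7.33% of all genes), and EC+/+ alone at none (8.89%). At a q-value under 0.001 the direction turned, with 1 gene in EA+/+ alone and 2 in EC+/+ alone. In the regions 14 of 24 EA+/+ peaks overlapped no EC+/+ peak (60.7% of all EA+/+ peaks), among them 4 at Slc27a2, 3 at Ucp1 and 3 at Letmd1. The reverse count was 8 of 17 EC+/+ peaks (54.9% of all), of which 4 were at Kcnk3. For 9 peaks found in both, the rank was better in EA+/+ for 2 and worse for 7, with a median shift of 19.1 points towards weaker. The median over all 15221 shared peaks was −0.789 points and 52.8% ranked better in EA+/+. Some of the 9 lay at neighbours' promoters, and the median was the shift of the Pitx3 promoter peak 16.4 kb downstream of the Elovl3 TSS. The Tmem128 promoter near Otop1 shifted 47.2 points weaker, and another Pitx3 promoter peak 6.54 points stronger. Over all shared peaks the median size of a shift was 14.9 points, and 1 in 10 exceeded 49.4 points. The Otop1 promoter moved from rank 15.0% to 64.0%, within that size, and the Pdk4 promoter from 4.09% to 1.59%. The shared Gk peak moved from 17.0% to 96.8%, although a separate EA+/+ peak at the same promoter, 222 bp upstream of the TSS, ranked at 16.2%.

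The knock-out comparison asks the same for adipocytes without Ets1. H3K27ac promoter peaks at Ucp1, Letmd1, Dio2, Pdk4 and Gk were in both Flox and EAKO. Flox alone had them at Otop1, Kcnk3 and Cidea (3 of 10, against 5.18% of all genes), and EAKO alone at none (1.75%). The 3 peaks were weak in Flox, at ranks of 71.8% to 93.6%, while the Flox list held 86834 peaks against 74682 in EAKO. In the regions 14 of 32 Flox peaks overlapped no EAKO peak (35.9% of all Flox peaks), 4 of them at Otop1, 4 at Kcnk3 and 3 at Letmd1. In the other direction it was 10 of 29 EAKO peaks (26.0% of all), 5 of them at Kcnk3. Of 18 shared H3K27ac peaks 7 ranked better and 11 worse in EAKO, with a median shift of 1.33 points, against 1.57 points over all shared peaks, of which 41.8% ranked better in EAKO. Dio2 (55.4% to 32.8%) and the site 41.6 kb downstream of the Slc27a2 TSS (59.4% to 40.0%) ranked better in EAKO, and the site 19.2 kb upstream of Ucp1 (45.5% to 74.3%) ranked worse. The largest shifts were at Letmd1, 5.25 kb upstream (93.5% to 55.9%) and 6.49 kb downstream of the TSS (52.6% to 83.9%). Over all shared peaks 1 in 10 shifts exceeded 32.5 points, and of the shifts named here the one 5.25 kb upstream of Letmd1 did.

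Open chromatin was largely shared between Flox and EAKO. The ATAC promoter peak of Slc27a2 was in Flox alone (1 of 10, against 2.54% of all genes), and none was in EAKO alone (0.784%). By region 2 of 35 Flox peaks overlapped no EAKO peak (16.6% of all Flox peaks), and 4 of 38 EAKO peaks overlapped no Flox peak (8.98% of all EAKO peaks). The EAKO peaks were 1 each at Kcnk3, Letmd1, Dio2 and Slc27a2, and the strongest was the one upstream of Dio2 (14.2). For 33 Flox peaks shared with EAKO the rank was better in EAKO for 12 and worse for 21, with a median shift of 3.12 points, against 1.34 points over all 74248 shared peaks, of which 42.6% ranked better in EAKO. The median size of the shift over all shared ATAC peaks was 6.11 points, and 1 in 10 moved by over 20.1 points. Past that size were both Kcnk3 promoter peaks (25.6 and 47.3 points weaker) and the Ucp1 site 11.7 kb upstream (24.4). Also past it were the Letmd1 site 17.5 kb upstream (25.9) and the Pitx3 promoter near Elovl3 (21.2). In the other direction it was the Letmd1 site 11.4 kb upstream (20.3 points stronger). The Kcnk3 fall of 47.3 points pairs peaks that overlapped only in part and were not shared under the stricter overlap.

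**Figure D4:**
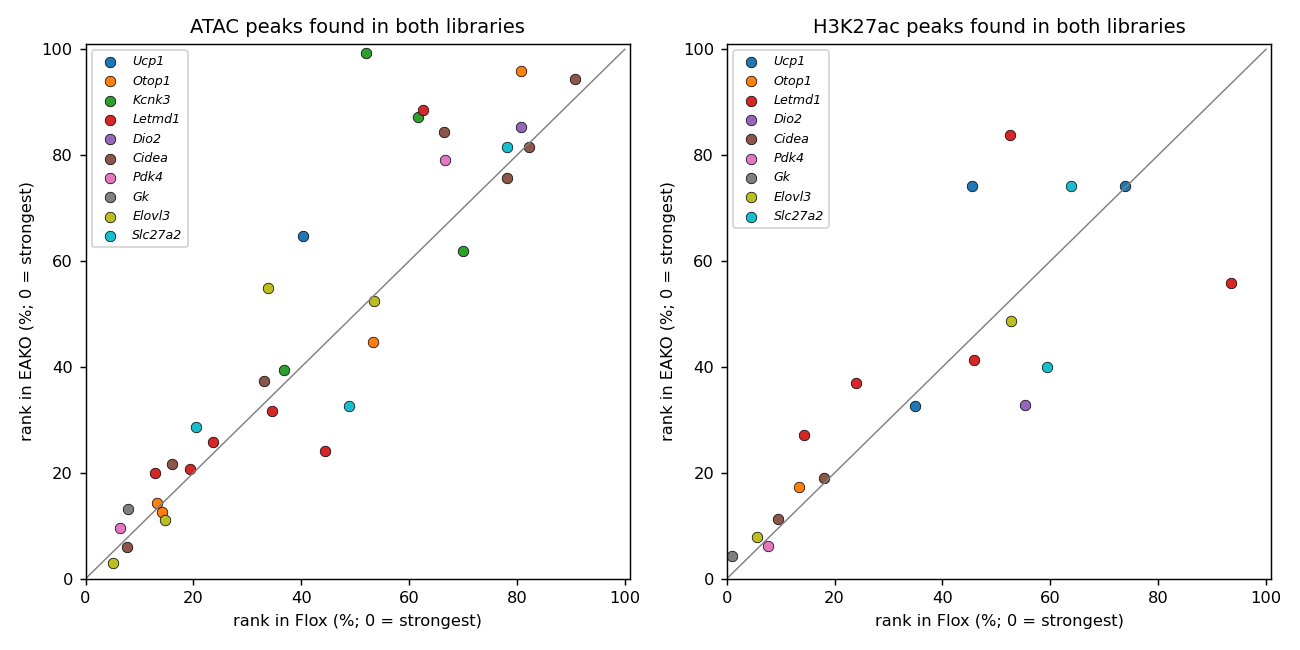
Rank within the list (percent, 0 is strongest) of region peaks present in both Flox (horizontal axis) and EAKO (vertical axis), for ATAC (33 peaks) and H3K27ac (18 peaks), coloured by gene, with the line of equal rank in grey. The Kcnk3 point at an internal TSS, which pairs peaks that overlap only in part, lies farthest above the line in the ATAC panel. In the H3K27ac panel a Letmd1 site 5.25 kb upstream lies farthest below it.

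Other thermogenic genes, 38 in lists of fuel and mitochondrial partners, regulators, signals and beige markers, were counted in the same way. An Ets1 promoter peak was present at 1 of 38 in RT, 12 in CS and 16 in beige adipocytes, which is 2.63%, 31.6% and 42.1%. The shares of all protein-coding genes were 4.06%, 32.7% and 46.4%, so these counts were near or just below the background. By list, beige Ets1 stood at 7 of 12 regulator promoters, 5 of 10 partner promoters, 3 of 10 signal promoters and 1 of 6 beige marker promoters, beside 3 of 10 for the effector genes. With so few genes per list, differences from the 46.4% of all genes were not tested. Esrra, a nuclear receptor of mitochondrial genes, had the best Ets1 ranks, at 71.2% in RT (−log10 q 2.45), 1.09% in CS (25.7) and 1.42% in beige cells (96.5). Gnas, the stimulatory G protein, had Ets1 of 6.70 in CS and 52.8 in beige cells. Zfp516, a cold-induced activator of Ucp1, had 42.3 and Cebpb, an adipogenic factor, had 25.5, both in beige cells alone. Gpd2, the glycerophosphate dehydrogenase, had 7.83 in CS and 5.46 in beige cells, Pparg, the adipogenic receptor, 7.18 and 3.28, and Thra, a thyroid hormone receptor, 6.59 and 4.28. Tnfrsf9, a beige marker, had 17.7 in beige cells alone. The Gk peak in beige cells (77.0) ranked below Esrra and above the rest of these genes.

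The pattern of Ucp1 over the 9 lists, taken as the rank percentile of the best peak in the region with 0 where there was none, was compared with that of 21935 other genes. The most alike were B3gnt7, Gm17304 and Gpr85, with mean absolute differences of 1.78, 3.93 and 4.95 percentile points over the 9 lists, against a median of 35.4 over all genes compared. At promoters the Ucp1 pattern, H3K27ac in Flox and EAKO and no other peak, was found at 74 genes (0.337%). The Slc27a2 pattern was found at 34 genes (0.155%), the pattern shared by Otop1 and Cidea at 127 (0.579%), that of Kcnk3 at 195 (0.889%), that of Dio2 at 273 (1.24%) and that of Elovl3 at 531 (2.42%).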

How the data were processed

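Ets1 and H3K27ac were profiled by CUT&Tag and open chromatin by ATAC in 9 libraries, 1 library per group, and groups were taken from the sample labels. The authors trimmed reads with trimmomatic, aligned them with BWA to mm10 and called peaks per library with MACS2 at a q-value under 0.05. SAMtools, deepTools and DESeq2 are named too in the processing notes of the submitters. Whether MACS2 had a control library, and whether regions were excluded, is not given in the sources used here. Each deposited list holds, per peak, a score, the fold enrichment over local background as a linear ratio, the −log10 of the p-value and of the q-value, and the offset of the summit. The lists hold no read counts. The study states read totals per library, but they were not analysed here, so the effect of depth on the number of peaks was not tested. CUT&Tag can also tag open DNA without the antibody's target, which may add peaks at open promoters.

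Promoters were 1 kb on each side of the 93513 TSSs of 21938 protein-coding genes (GENCODE M21, mm10). Regions were the gene body with 20 kb on each side, and peaks were shared when they overlapped by 1 bp. Sites were overlapping peaks of any list merged together. Ranks used the −log10 q within each list. Coordinates are 1-based, and distances run from the 5′-most TSS of the gene to the summit. Motifs were exact matches on either strand in 300 bp around the summit, in the RefSeq GRCm38 sequence. Overlap code was tested on simulated peaks against bedtools 2.31.1, under Python 3.11.15. With no replicates, no test was made. The 10 genes and the other lists were chosen with earlier results of these data known. Named were all 10 genes, the 8 of the 38 other thermogenic genes with the best Ets1 promoter rank, and the 3 genes most like Ucp1. Other genes named are neighbours or markers, chosen after their values were seen. Alternatives were a 3 kb promoter, the first TSS alone, a q-value under 0.001, equal numbers of best peaks, flanks of 50 and 5 kb, an overlap of 50% of the shorter peak, a wider enhancer window and ranking by fold enrichment.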

Additional observations from a re-analysis of the deposited data

How the results depend on the processing

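No paired analysis was possible because each group had 1 library. The counts of peaks in the regions followed the flank. With 50 kb on each side they were 9 (CS), 23 (beige), 28 (EC+/+), 42 (EA+/+), 64 (Flox H3K27ac), 59 (EAKO H3K27ac) and 65 (each ATAC list). With 5 kb they were 4 (beige), 10 (EC+/+), 15 (EA+/+), 18 (Flox H3K27ac), 13 (EAKO H3K27ac), 16 (Flox ATAC) and 18 (EAKO ATAC). At a q-value under 0.001 RT Ets1 lost its peak (0 promoters and 0 region peaks), EA+/+ H3K27ac kept 4 promoters, and genes with a promoter peak in EA+/+ alone fell to 1 while those in EC+/+ alone rose to 2. The EAKO H3K27ac region peaks without a Flox peak were then 5. With a 3 kb promoter, 1 gene had Ets1 in CS and not in beige cells, and 1 had H3K27ac in EC+/+ and not in EA+/+. With equal numbers of best peaks in both lists, 2 CS peaks overlapped no RT peak, 3 beige peaks overlapped no CS peak and 3 no RT peak, and 1 RT region peak and 1 RT promoter, at Letmd1, had no beige counterpart. With the first TSS alone 5 promoter counts fell, to 4 (EC+/+), 6 (EA+/+), 6 (Flox H3K27ac), 8 (Flox ATAC) and 7 (EAKO ATAC). With an overlap of 50% the peaks found in 1 library alone were 3 (Flox) and 5 (EAKO) for ATAC. The Kcnk3 ATAC peaks at the internal TSS were then no longer shared. For H3K27ac the peaks found in 1 library alone were 15 (Flox) and 11 (EAKO). The wider enhancer window held no peak either. Ranking by fold enrichment moved 15 of 49 promoter ranks by over 1.5 times, 4 towards weaker (the ATAC peaks of Gk and Elovl3 in both libraries) and 11 towards stronger. With 1 library per group, a missing peak can be a peak under the threshold, and a list with more peaks finds more of them.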
